A study of Mus musculus with 9 samples.

Results

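Promyelocytic leukaemia (PML) nuclear bodies are described here through 5 genes, Pml, Daxx, Sp100, Sp110 and Sp140, chosen by name as nuclear body factors that restrict DNA viruses. All 5 were among the 1710 genes of the deposited table, and all 5 passed the filter on low counts that left 1583 genes for testing. Sp140 was found by its gene identifier, because the deposited symbol on its row is SP140L, and the symbols SP140 and SP100 stand on the rows of other genes, A530032D15Rik and A630001G21Rik. RNA was sequenced from wild-type mouse tissue labelled as brain ctx, 10 days after a stereotaxic injection, from the centre of the injected area. The 9 libraries fall into the groups PBS (a buffered salt solution), LowDose and HighDose, with 3 libraries each. The title of the series refers to innate immunity set off by AAV, a DNA virus employed as a gene carrier, and the groups allow each dose to be set against PBS and the doses against each other. The labels give wild type as the genotype of every library and a viral injection as the treatment of every library, PBS included, and the amounts injected were not used here. The labels do not tie libraries to animals, so every SD, SE and p measures the spread between libraries, which may be technical.

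PML nuclear bodies are round protein assemblies in the cell nucleus. The PML protein forms their shell, and proteins modified by the ubiquitin-like SUMO are held inside. When viral DNA enters the nucleus, these bodies can gather at it and help to silence it, and many DNA viruses carry proteins that take the bodies apart. In human cells PML and SP100 are known interferon-stimulated genes, so the bodies grow in number and size when interferon, the antiviral cytokine family, is present.

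Library totals lay between 18.3 and 23.7 M reads or read pairs (M, 1e6), and levels are given as counts per 1e6 of these totals (CPM). Each of the 1710 listed genes differs at least 2-fold in mean FPKM (counts per length and library total) between at least 1 pair of groups, so the table is a selection by difference and the tests of it repeat part of that choice. The 9 cortical and pan-neuronal markers looked for, among them Slc17a7 and Rbfox3, are not in the table and could not be used to check the tissue label. All 8 striatal neuron markers looked for are in it, with summed levels of 281 to 326 CPM in HighDose and 804 to 1202 CPM in PBS, and of 289 to 669 CPM in LowDose.

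Sp110, Sp140 and Sp100 are neighbours on chromosome 1, and the start regions of 2 of them are shown because they share a run of letters. In the annotation (GENCODE M21, mm10) Sp110 occupies 85576899 to 85598817 on the minus strand, Sp140 85600378 to 85645037 on the plus strand and Sp100 85649988 to 85709998 on the plus strand, so that Sp110 and Sp140 start 1561 bases apart and point away from each other, and Sp100 begins 4951 bases after the end of Sp140. Pml spans 58218076 to 58249786 of chromosome 9 (minus strand), and Daxx spans 33909414 to 33915590 of chromosome 17 (plus strand). The RefSeq start regions (GRCm38.p6, 5′ to 3′, from 250 bases before the start site to 30 after it) of Sp100, at chr1:85649738-85650017 on the plus strand, and of Sp110, at chr1:85598781-85599060 on the minus strand, follow, with the shared run in capitals.
Sp100: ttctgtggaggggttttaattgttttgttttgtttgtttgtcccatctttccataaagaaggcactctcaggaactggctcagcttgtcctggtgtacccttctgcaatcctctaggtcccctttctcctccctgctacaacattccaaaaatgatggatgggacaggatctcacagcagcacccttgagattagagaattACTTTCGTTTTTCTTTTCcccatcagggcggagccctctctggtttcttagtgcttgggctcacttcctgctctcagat
Sp110: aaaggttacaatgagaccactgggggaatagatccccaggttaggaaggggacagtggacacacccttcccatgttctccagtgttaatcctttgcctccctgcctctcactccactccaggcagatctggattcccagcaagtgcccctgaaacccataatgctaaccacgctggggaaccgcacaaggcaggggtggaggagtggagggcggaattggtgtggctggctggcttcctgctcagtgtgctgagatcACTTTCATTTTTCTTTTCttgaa

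The run is the longest that these windows share on the same strand with at most 1 different base. Written ACTTTCNTTTTTCTTTTC, with N for any base, it begins 49 bases before the start site of Sp100 and 7 bases after that of Sp110, and its other strand reads GAAAAGAAAAANGAAAGT. Searched on both strands, it was found in 4 of the 32851 RefSeq start regions of 300 bases (0.0122%), which belong to 3 genes: Sp100 (both of its start regions, which overlap), Sp110 (1 of its 2) and Gm7609, which lies in the same stretch of chromosome 1. The run was taken from the Sp100 and Sp110 windows after they had been read, so its matches there are fixed by that choice. Only the match in Gm7609 is separate, and the share does not measure how special the run is. The interferon-stimulated response element, searched as a pair of GAAA half-sites with 2 bases between them on either strand, was in none of the 9 start regions of the 5 genes, against 3.44% of all start regions and 9.62% of those of the tested genes. The gamma-activated site, TTCNNNGAA, which reads the same on the other strand, was in none either, against 8.30% of all and 10.0% of those of the tested genes. With only 9 windows from 5 genes, some of them overlapping, finding none cannot be told apart from these shares. Only exact matches were searched, so sites that differ from these letters were missed. The other strand of the run in capitals holds several GAAA half-sites, none of them with 2 bases between. These matches describe letters in the windows and test no factor.

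In HighDose the transcripts of all 5 genes were several times their PBS level. By the quasi-likelihood test of edgeR all 5 rose against PBS, with log2 changes of 2.46 to 4.85 and a median of 3.72, where the median of all 1583 tested genes was 1.90. In the same comparison 86.3% of the tested genes were called higher and 10.7% lower, and 85.8% had every HighDose library above every PBS library, so that the count of 5 of 5 is near the background of this table, and the size of the changes is what can be read. In bulk tissue, more cells of a type and more RNA per cell cannot be told apart. The changes ran from Daxx, above 62.6% of the tested genes, through Pml (68.6%), Sp100 (77.3%) and Sp110 (82.1%), to Sp140, above 84.8%.

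Pml encodes the protein that builds the shell of the bodies. It had 73.6, 118 and 127 CPM in the HighDose libraries, against 13.8, 15.1 and 14.5 CPM in the PBS libraries. The groups did not overlap, and the lowest HighDose value was replicate 1. The means were 106 ± 28.5 CPM in HighDose and 14.5 ± 0.637 CPM in PBS (SD, n = 3 each). On the log2 scale Pml rose by 2.87 ± 0.24 (SE, adjusted p = 1.12e-14), or 7.33-fold.

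Daxx encodes a histone chaperone that sits in the bodies and, together with Atrx, places a variant histone on DNA. Daxx had 91.3, 102 and 151 CPM in the HighDose libraries, against 18.8, 21.6 and 22.0 CPM in the PBS libraries, with no overlap. The log2 change was 2.46 ± 0.23 (adjusted p = 4.25e-13), or 5.52-fold, the smallest of the 5. Daxx was the highest of the 5 per transcript length in PBS and had the highest FPKM in HighDose too.

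Sp100 encodes a constant resident of the bodies that binds chromatin proteins. Its levels were 47.6, 68.3 and 81.4 CPM in HighDose, against 4.03, 5.08 and 5.86 CPM in PBS, with means of 65.8 ± 17.0 CPM in HighDose and 4.99 ± 0.914 CPM in PBS. The log2 change was 3.72 ± 0.25 (adjusted p = 1.79e-17), or 13.1-fold. Counts of Sp100 were not whole in 3 of the 9 libraries, as when reads are divided between similar genes.

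Sp110 and Sp140 encode relatives of Sp100 that are best known from leukocytes. In mouse, Sp110 is also known as Ipr1, for resistance of macrophages to intracellular bacteria, and mice without Sp140 are known for a raised interferon response to bacteria. Sp110 had 15.7, 27.7 and 28.2 CPM in HighDose and 0.763, 1.36 and 1.34 CPM in PBS, and Sp140 had 17.1, 24.5 and 33.0 CPM in HighDose and 0.929, 0.923 and 0.740 CPM in PBS. Both were near 1 CPM in PBS, and their HighDose libraries lay far above every PBS library. The log2 changes were 4.35 ± 0.31 for Sp110 (20.4-fold, adjusted p = 5.55e-17) and 4.85 ± 0.31 for Sp140 (28.8-fold, adjusted p = 2.34e-18). The PBS values rest on 14 to 29 counts a library for Sp110 and 16 to 19 for Sp140, and counts of Sp140 were not whole in 9 of 9 libraries, so its reads may be split with similar genes and its level is uncertain.

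**Figure D1:**
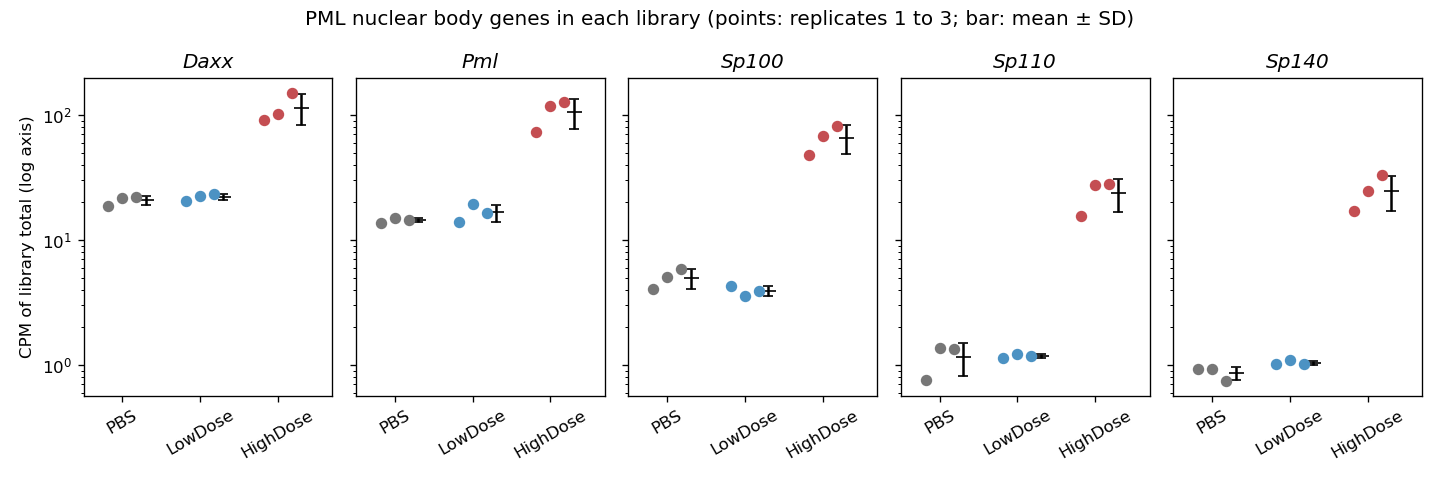
CPM of the library total (log axis) of the 5 genes in each library, by group, with points for replicates 1 to 3 and the mean ± SD beside them. In each panel the 3 HighDose points lie above all PBS and LowDose points, from 91.3 to 151 CPM for Daxx and from 17.1 to 33.0 CPM for Sp140.

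These folds depend on how the libraries are scaled, because most listed genes are higher in HighDose. With scaling inside the listed genes (TMM and the size factors of DESeq2, which take most of them as unchanged, or their summed counts, which are then held equal), the log2 changes were 0.74 to 0.78 for Daxx, 1.15 to 1.18 for Pml, 1.99 to 2.02 for Sp100, 2.63 to 2.66 for Sp110 and 3.12 to 3.15 for Sp140, and all 5 stayed called, while the calls over all genes became 600 higher and 464 lower under TMM against 1366 and 169 with library totals.

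Relative to the median of the tested genes, Daxx stood at 0.56 and Sp140 at 2.95 on the log2 scale with library totals. A scaling shifts all genes by nearly the same amount, so these differences and the order of the 5 genes are fixed by construction and say nothing about which scaling is right.

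The proportions of the 5 genes differed between the groups, as a description with no test. Of the summed FPKM of the 5 genes, Daxx held 40.3% ± 4.08 in HighDose and 56.8% ± 2.30 in PBS (SD, n = 3 each), and Sp100 held 26.1% ± 1.09 in HighDose and 17.0% ± 2.44 in PBS. Sp110 and Sp140 held 8.77% ± 1.28 and 7.31% ± 0.336 in HighDose, against 3.58% ± 0.737 and 2.51% ± 0.973 in PBS. In these 4 shares the HighDose libraries did not overlap the PBS libraries. The share of Pml did overlap, at 16.3%, 19.7% and 16.6% in HighDose and 21.7%, 19.0% and 19.5% in PBS. The sum itself was 104, 141 and 178 FPKM in HighDose, against 14.6, 18.2 and 17.1 FPKM in PBS.

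**Figure D2:**
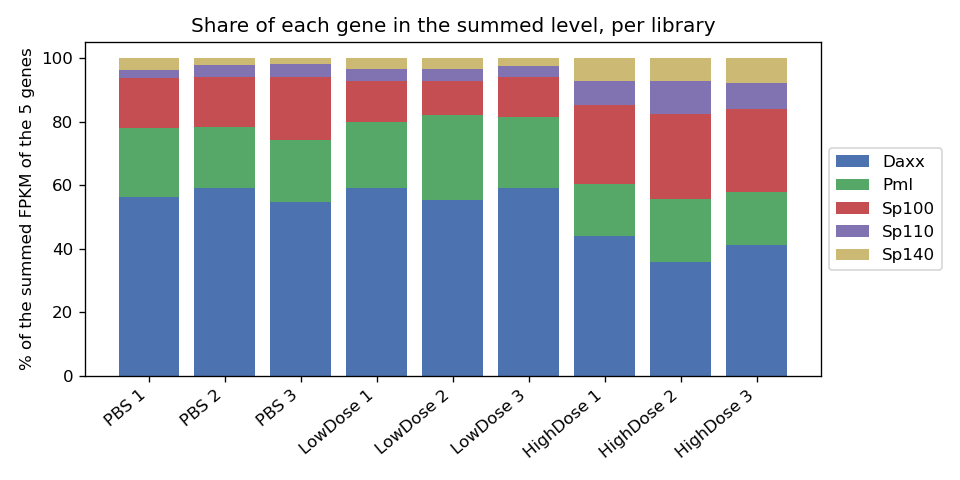
Share of each gene (colours, in %) in the summed FPKM of the 5 genes, 1 bar per library from PBS through LowDose to HighDose. Daxx takes 35.9% to 43.9% of the bar in HighDose and 54.7% to 59.3% in PBS, and Sp100, Sp110 and Sp140 take more of it in HighDose.

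Per transcript length the order of the levels in HighDose was Daxx (56.5 ± 14.6 FPKM), Sp100 (36.9 ± 10.4), Pml (24.8 ± 6.74), Sp110 (12.4 ± 3.67) and Sp140 (10.4 ± 3.17). In PBS it was Daxx (9.46 ± 1.25 FPKM), Pml (3.32 ± 0.131), Sp100 (2.84 ± 0.565), Sp110 (0.603 ± 0.176) and Sp140 (0.407 ± 0.112). Pml and Sp100 therefore stood in the opposite order in the groups: Sp100 was above Pml in 3 of 3 HighDose libraries, and Pml above Sp100 in 2 of 3 PBS libraries, where their ranges overlap. Sp110 and Sp140 had overlapping ranges in both groups, and in HighDose the range of Sp100 overlapped those of Daxx and Pml. LowDose had the order of PBS, with Daxx at 9.57 ± 0.491 FPKM, Pml at 3.84 ± 0.591, Sp100 at 2.01 ± 0.165, Sp110 at 0.610 ± 0.0200 and Sp140 at 0.503 ± 0.0723, and no neighbours overlapped there.

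The lengths behind these FPKM values, computed as count over FPKM and library total, were steady for Sp110 (1920 to 1922 bases in HighDose and 1908 to 1910 in PBS) and for Pml (4269 to 4314 in HighDose and 4337 to 4378 in PBS). For Daxx they were 1990, 2027 and 2061 bases in HighDose and 2270, 2012 and 2352 in PBS, and the ratio of group means was 5.97 in FPKM and 5.52 in CPM. For Sp140 the length in PBS replicate 1 was 1753 bases, against 2387 and 2430 in the other PBS libraries, and its ratio of means was 25.5 in FPKM and 28.8 in CPM. FPKM of Daxx and Sp140 therefore carry a length that differs between libraries.

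In LowDose none of the 5 genes passed the test against PBS. The count was 0 of 5 by edgeR, also at an unadjusted p under 0.05, and 0 of 5 by the Wald test of DESeq2 at both. Scaled by the summed counts of the listed genes, 0 of 5 passed in edgeR but 2 did at an unadjusted p under 0.05. These were Pml at 0.41 (adjusted p = 0.140) and Daxx at 0.30 (adjusted p = 0.235). In that scaling 248 of the 1583 tested genes were higher at an unadjusted p under 0.05, against 61 with library totals. The median of all tested genes was 0.18 there, against -0.03 with library totals. Over the 3 scalings inside the listed genes the LowDose changes of the 5 genes ran from -0.32 to 0.48. With library totals edgeR called 2.59% of the tested genes, 0.442% higher and 2.15% lower. Pml had 14.1, 19.3 and 16.6 CPM in LowDose, where PBS had 13.8 to 15.1 CPM (log2 change 0.20 ± 0.23, adjusted p = 0.859). Daxx had 20.6, 22.5 and 23.2 CPM in LowDose, where PBS had 18.8 to 22.0 CPM (0.09 ± 0.22, adjusted p = 0.940). For both genes the groups overlapped. Between libraries of the same number, LowDose was above PBS in 3 of 3 for Pml, Daxx and Sp140 and in 1 of 3 for Sp100 and Sp110. For Sp140 this follows from every LowDose library being above every PBS library. No share of all genes stands beside these counts and the labels give no pairing, so they are a description only. With the replicate number as a block, the log2 changes were 0.19 for Pml (adjusted p = 0.806), 0.09 for Daxx (0.911) and 0.28 for Sp140 (0.837), and 0 of 5 passed, while calls over all genes became 12 higher and 50 lower in place of 7 and 34.

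Sp100 had 4.30, 3.55 and 3.90 CPM in LowDose, where PBS had 4.03 to 5.86 CPM, a log2 change of -0.35 ± 0.25 (adjusted p = 0.681). In FPKM all 3 LowDose libraries lay below all PBS libraries, at 2.06, 1.83 and 2.15 FPKM in LowDose against 2.27, 2.86 and 3.40 FPKM in PBS, as for 11.5% of the tested genes, while in CPM they overlapped. The length behind the FPKM of Sp100 was 1814 to 2087 bases in LowDose and 1722 to 1777 in PBS. Sp110 was at 1.14, 1.21 and 1.18 CPM (0.02 ± 0.33, adjusted p = 0.996), within the PBS range. Sp140 was at 1.01, 1.09 and 1.02 CPM in LowDose, where PBS had 0.740 to 0.929 CPM, so that every LowDose library was above every PBS library, as for 6.63% of the tested genes, with a log2 change of 0.27 ± 0.34 (adjusted p = 0.887).

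The approximate 95% intervals of the LowDose changes, on the log2 scale, ran from -0.25 to 0.66 for Pml, from -0.36 to 0.53 for Daxx, from -0.85 to 0.15 for Sp100, from -0.66 to 0.69 for Sp110 and from -0.43 to 0.96 for Sp140. In this fit all 5 lie inside a 2-fold change in either direction, and smaller changes could not be told from none with these libraries. The Wald test of DESeq2 gave 0.27 ± 0.38 (SE) for Sp140, so the bound is that of this fit only. The LowDose shares of the summed FPKM were 57.9% ± 2.27 for Daxx and 12.2% ± 1.05 for Sp100, against 56.8% ± 2.30 and 17.0% ± 2.44 in PBS. The share of Sp100 did not overlap between these groups. It rests on FPKM, where the length of Sp100 was greater in LowDose than in PBS, and in CPM Sp100 did overlap. No share of all genes stands beside this, so it is a description only.

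Between the doses all 5 genes were higher in HighDose, by log2 changes of 2.38 ± 0.23 for Daxx, 2.67 ± 0.23 for Pml, 4.07 ± 0.26 for Sp100, 4.34 ± 0.30 for Sp110 and 4.58 ± 0.30 for Sp140 (adjusted p from 1.75e-18 to 1.13e-12). In this comparison 88.1% of the tested genes were called higher and 7.08% lower, with a median of 1.88, and 86.5% had every HighDose library above every LowDose library, as all 5 genes did. Scaled inside the listed genes, the calls over all genes were 565 higher and 461 lower under TMM in place of 1394 and 112, and the 5 genes, at 0.48 to 2.85, stayed called. The comparison shares its HighDose libraries with the one against PBS, so these values are not separate evidence.

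**Figure D3:**
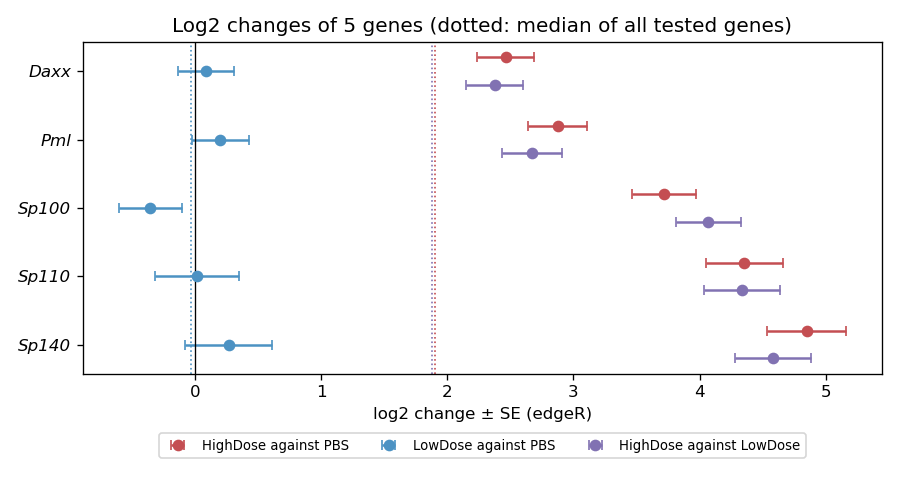
Log2 change ± SE of each gene in the 3 comparisons (colours), with dotted lines at the median of all tested genes. HighDose against PBS runs from 2.46 for Daxx to 4.85 for Sp140, and the LowDose values lie between -0.35 and 0.27.

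Around the Sp genes other rows of the table were also close to 0 in PBS and higher in HighDose. Within 500 kb of the start of Sp110, Sp140 or Sp100, the table lists 5 genes beside these 3. A630001G21Rik, whose row bears the symbol SP100, had 101 counts over the HighDose libraries and 11 over PBS, and rose by 3.03 ± 0.59 on the log2 scale (adjusted p = 1.29e-05), a call that TMM scaling lost (1.39, adjusted p = 0.0508). C130026I21Rik, whose row bears the symbol Ifi75, had 205 counts in HighDose and 3 in PBS, a ratio of 62.0 (95% counting interval 20.9 to 303).

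A530032D15Rik, whose row bears the symbol SP140, had 39.4 counts in HighDose and 0 in PBS, at least 11.8-fold higher with 3 counts in all taken as the PBS floor. Gm7609, annotated as a transcribed pseudogene, had 27.2 counts in HighDose and 0 in PBS, at least 8.17-fold higher, and neither A530032D15Rik nor Gm7609 passed the low-count filter. Counts of these rows were not whole in 2 to 3 libraries, except for A630001G21Rik. The fifth, 4933407L21Rik, fell by 1.46 ± 0.50 on the log2 scale (adjusted p = 0.00617), with 32 counts in HighDose and 81 in PBS. Adding the counts of these rows, all but 4933407L21Rik, to Sp140 and to Sp100, an alternative chosen after seeing the data, gave log2 changes of 4.80 for Sp140 and 3.77 for Sp100.

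**Figure D4:**
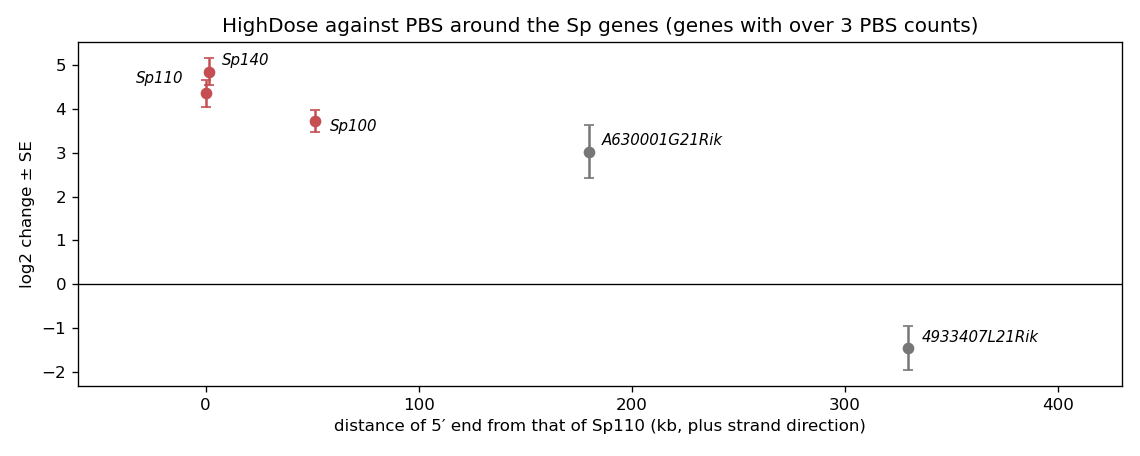
Log2 change ± SE in HighDose against PBS of tested genes on this part of chromosome 1 with over 3 PBS counts, by distance in kb of their 5′ end from that of Sp110. Sp110, Sp140 and Sp100 (red) lie between 3.72 and 4.85, A630001G21Rik at 3.03 and 4933407L21Rik at -1.46.

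Daxx and Pml have other surroundings. Daxx lies beside antigen presentation genes on chromosome 17, and all 16 listed genes within 500 kb of its start rose in HighDose. Their median log2 change was 4.08. Scaled inside the listed genes, 13 of 16 were called higher, with medians of 2.37 to 2.40. Of all tested genes 86.3% were called higher with library totals, with a median of 1.90, so the count of 16 is near the background of this table. Tapbp, which loads peptides onto MHC class I, begins 309 bases after the end of Daxx on the same strand and rose by 3.30 ± 0.24 (adjusted p = 1.00e-16), and H2-K1, a class I heavy chain, rose by 4.40 ± 0.25 (adjusted p = 6.72e-20). The annotated genes Daxx and Tapbp do not overlap. Pml had 1 listed gene within 500 kb, Stra6, a retinol transporter, which rose by 1.66 ± 0.28 (adjusted p = 1.21e-06) but stood at -0.08 to -0.05, with no call, when scaled inside the listed genes.

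Most partners of PML bodies looked for are not in the table, which lists only genes that differ 2-fold between some groups. Of 50 partner and SUMO pathway genes, 4 were listed and all 4 rose in HighDose. Their median log2 change was 1.51, beside 1.90 for all tested genes, of which 86.3% were called higher. Isg20, an exonuclease that is known from PML bodies and is induced by interferon, had 40.5 ± 12.1 CPM in HighDose and 0.493 ± 0.0588 CPM in PBS (log2 6.34 ± 0.34, adjusted p = 3.40e-21). Morc3, an ATPase of PML bodies that in human cells restrains viral DNA, rose by 1.29 ± 0.22. Mdm2 (1.40 ± 0.22), the ubiquitin ligase of p53, and Trp53inp1 (1.62 ± 0.23), a p53 target whose protein goes to the bodies, rose as well. Scaled inside the listed genes only Isg20 stayed higher (4.62 to 4.65), while Morc3 (-0.43 to -0.40) and Mdm2 (-0.32 to -0.29) were called lower and Trp53inp1 (-0.11 to -0.08) was not called, so the direction of these 3 depends on the scaling. In LowDose 0 of these 4 passed (edgeR, also at an unadjusted p under 0.05, where their log2 changes ran from -0.35 to 0.11).

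Genes of interferon signalling were higher in HighDose than in PBS together with the 5 genes. Of 20 looked for, 14 were listed, 12 were tested and 12 rose, with a median of 3.78. Of all tested genes 86.3% were called higher, with a median of 1.90, so the count of 12 is near the background of this table. Among the factors that carry the interferon signal to DNA, Stat2 rose by 3.69 ± 0.24, Irf9 by 3.87 ± 0.25, Irf1 by 4.60 ± 0.25 and Irf7 by 6.19 ± 0.29 on the log2 scale. Irf8, a factor of myeloid cells, rose by 2.60 ± 0.23, and the receptor chain Ifnar2 by 0.98 ± 0.22. Jak2 (1.16 ± 0.21) and Irf2 (1.54 ± 0.22), like Ifnar2, lay below the median of all tested genes. Scaled inside the listed genes, 9 of the 12 stayed higher, with a median of 2.06 to 2.09, Ifnar2 (-0.71 to -0.68) and the kinase Jak2 (-0.55 to -0.52) were called lower, and Irf2 was not called. The cytokine genes themselves were sparse: Ifnb1 had 57 counts and Ifng 44 over the HighDose libraries, against 0 and 1 over PBS, and neither was tested. In LowDose 0 of the 12 passed, with 1 at an unadjusted p under 0.05, and the median was -0.01.

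Within HighDose the libraries differed. Replicate 1 was the lowest of the 3 for each of the 5 genes and replicate 3 the highest, and the highest was 1.65 to 1.93 times the lowest. The 5 genes summed to 245, 341 and 420 CPM in HighDose replicates 1 to 3, and to 38.3, 44.1 and 44.5 CPM in the PBS libraries. The 14 interferon signalling genes summed to 1504, 2172 and 2479 CPM in the same HighDose libraries, against 146 to 166 CPM in PBS. Without HighDose replicate 1 the log2 change of Sp140 was 5.06, and without replicate 3 that of Daxx was 2.22. All 5 genes stayed called in both cases.

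Markers of immune cells moved with these groups. The 9 listed of 10 T cell markers summed to 15.6, 29.6 and 32.9 CPM in HighDose replicates 1 to 3, against 0.581 to 1.48 CPM in PBS, with Cd3d at 0 in every PBS library, and 9 of 9 rose. The 5 listed of 6 B cell markers summed to 3.59 to 8.54 CPM in HighDose and 0.709 to 1.11 in PBS, and the 6 NK cell markers to 33.3 to 57.0 CPM in HighDose and 0.194 to 0.273 in PBS. The 5 listed of 8 monocyte and dendritic cell markers summed to 78.9 to 144 CPM in HighDose and 0.873 to 1.64 in PBS, with Xcr1 at 0 in every PBS library. Of those tested, 3 of 4 B cell, 6 of 6 NK cell and 4 of 4 monocyte and dendritic cell markers rose. These counts stand beside 86.3% of all tested genes called higher in the same comparison. Under TMM and DESeq2 size factors 3 of the 4 monocyte and dendritic cell markers were called, without Cd209a (adjusted p up to 0.0547). In HighDose most of the NK cell sum came from Gzmb alone, at 22.4 to 37.2 CPM. Most of the monocyte and dendritic cell sum came from Ly6c2, at 60.3 to 105 CPM, whose counts were not whole in 9 libraries. The 7 listed of 10 microglia and macrophage markers summed to 188 to 253 CPM in HighDose and 98.5 to 123 CPM in PBS, with 6 of the 7 higher and P2ry12, a marker of resting microglia, which fell by 0.97 ± 0.22 on the log2 scale. Scaled inside the listed genes, 3 of these 7 were higher and 4 lower. The part of these cells in the levels of the 5 genes was not tested.

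**Figure D5:**
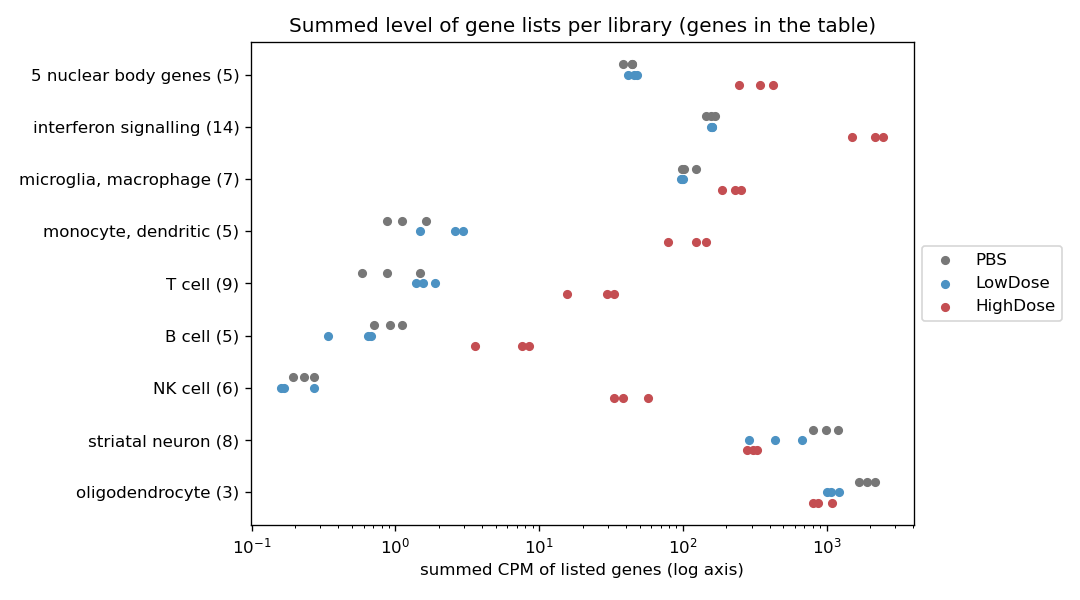
Summed CPM (log axis) of the listed members of each gene list, with the number of members in brackets and 1 point per library, by group. The 5 nuclear body genes lie at 245 to 420 CPM in HighDose and 38.3 to 44.5 CPM in PBS, and T cell markers at 15.6 to 32.9 CPM in HighDose and 0.581 to 1.48 CPM in PBS.

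Single marker genes of other cells were also listed. Gfap, the astrocyte filament and the only listed of 7 astrocyte markers, lay at 374 to 534 CPM in HighDose and 113 to 146 CPM in PBS. Vwf, the only listed of 6 endothelial markers, lay at 38.0 to 60.4 CPM in HighDose and 20.8 to 23.7 CPM in PBS. Both were called higher, but scaled inside the listed genes Gfap was not called and Vwf was called lower (-0.63 to -0.60). The 3 listed of 6 oligodendrocyte markers summed to 797 to 1089 CPM in HighDose and 1663 to 2182 CPM in PBS. In LowDose, where the 5 genes did not pass, 2 of the 3 oligodendrocyte markers and 7 of the 8 striatal markers fell, and 0 of the 9 T cell markers passed (edgeR, 1 at an unadjusted p under 0.05). Beside these counts stand 2.15% of all tested genes called lower and 0.442% called higher in LowDose against PBS. Of the 4 tested monocyte and dendritic cell markers 1 passed in LowDose, Cd209a, with 34 counts over the LowDose libraries and 3 over PBS (adjusted p = 0.0432), and it did not pass when scaled inside the listed genes. None of these striatal and oligodendrocyte calls was made when scaled inside the listed genes. The 8 striatal markers summed to 669, 437 and 289 CPM in LowDose replicates 1 to 3, a wide spread within the group whose cause was not tested. All 8 striatal and all 3 oligodendrocyte markers fell in HighDose in each scaling. Beside them, 10.7% of all tested genes were called lower there with library totals, and 464 of 1583 under TMM.

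The genes whose course over the 9 libraries was most like each of the 5 differed from one to the other. Likeness was the root mean square difference of log2(CPM + 0.5), each gene centred on its PBS mean, over 1249 named genes with a mean of at least 1 CPM. Nearest to Pml were Lcp2 (0.11), Mefv (0.12) and Slamf9 (0.13), and nearest to Daxx were Sbno2 (0.13), Itgb2 (0.14) and Msn (0.14). Nearest to Sp100 were Slfn5 (0.15), Trim30b (0.19) and Irf9 (0.20), where Slfn5 rose by 3.75 ± 0.24 and Irf9 by 3.87 ± 0.25 in HighDose against PBS, beside 3.72 for Sp100.

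Nearest to Sp110 were Parp12 (0.15), Parp3 (0.15) and Gbp8 (0.16), and nearest to Sp140 were Zc3hav1 (0.14), Cd69 (0.14) and Apol9a (0.15). The median difference of all candidates was 0.75 to 1.58. Mefv, Trim30b, Gbp8, Cd69 and Apol9a were at 0 to 0.147 CPM in PBS, where the pseudocount of 0.5 understates their change. Among the 5 genes the smallest differences were 0.28 for Pml and Daxx, 0.28 for Sp100 and Sp110 and 0.29 for Sp110 and Sp140, and the largest was 1.03 for Daxx and Sp140.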

How the data were processed

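The authors deposited estimated counts per gene for 9 libraries, on build mm10, per the submitters' processing notes, which name edgeR and DESeq2 without a role, and beside them FPKM per gene and library, per the file headers. No aligner, counter, strand setting or rule for listing genes is stated in the labels or headers. Between 7.66% and 14.0% of a library's counts were not whole, and all were rounded for the tests. Column sums are not depths in a selected table, so totals were worked out from the ratio of count to FPKM and length in 23 to 68 single-transcript genes (GENCODE M21). A count of 3 corresponds to 0.126 to 0.164 CPM. The main test was edgeR's quasi-likelihood test (version 4.0.16, limma 3.58.1, R 4.3.3) after filterByExpr (minimum count 10), with all 3 groups in 1 model, and p-values were adjusted by Benjamini-Hochberg over 1583 genes (threshold 0.05). Each SE is the log2 change's size divided by the root of F and is approximate, as are the intervals from it. Counting intervals and floors cover counting error only. Alternatives were 3 scalings inside the listed genes (TMM, size factors of DESeq2 1.42.0, summed counts), 2 other filters (none, or 1 CPM in at least 3 libraries), DESeq2's Wald test, pairs of groups alone, a replicate block, adjustment over 55450 annotated genes, leaving out each library and adding relatives' counts. The labels number replicates 1 to 3 in each group. Deviations from group means of same-numbered LowDose and PBS libraries correlated at 0.247, 0.165 and 0.137 over 1583 genes, so values with the block are given beside that comparison; this pairing comes from the data and not the labels. The pipeline was tested on simulated data. The members, lists and tests were chosen with earlier results of these data known. Genes named by rule are the 5 members, the partner and interferon lists, the 3 genes nearest each member and listed genes within 500 kb. Others, from marker lists, were picked after their values were seen. Values of some genes under this rule are not reported here. Start regions come from RefSeq (GRCm38.p6), where all 5 genes matched. Python 3.11.15 with pandas 2.3.3 and matplotlib 3.10.9 made tables and plots.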

Additional observations from a re-analysis of the deposited data

How the results depend on the processing

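All 5 genes stayed called higher in HighDose, against PBS and against LowDose, and 0 of 5 in LowDose against PBS, under each of the 19 alternatives (edgeR, or the Wald test of DESeq2 as one of them). With 1 library left out, the log2 changes ran from 2.22 to 5.06 in HighDose against PBS. Sp110 in LowDose against PBS ran from -0.20 to 0.15 around its value of 0.02. It turned below 0 without PBS replicate 1 (-0.20), its lowest PBS library at 0.763 CPM. The same held without LowDose replicate 2 (-0.01), its highest LowDose library at 1.21 CPM. Scaling inside the listed genes moved the median of all tested genes in HighDose against PBS to 0.19, 0.22 and 0.22 (TMM, DESeq2 size factors, listed sum), since the first and second take most listed genes as unchanged and the third holds their sum equal, and calls to 600 higher and 464 lower, 605 and 455, and 607 and 454. In HighDose against LowDose they gave 565 and 461, 576 and 445, and 524 and 524, in place of 1394 and 112. In LowDose against PBS the calls over all genes, 7 higher and 34 lower, became 3 and 3, 3 and 3, and 9 and 2 in these scalings, 12 and 50 with the replicate block, 1 and 7 adjusted over all annotated genes, 22 and 57 without LowDose replicate 1, 5 and 21 without replicate 2 and 11 and 18 without replicate 3. The replicate block changed no call of the 5 genes. Pairs with HighDose had correlations of -0.01 to 0.18, which overlap the 0.137 to 0.247 of LowDose and PBS. Of the libraries, 8 of 9 correlated best with their own number. These values do not settle whether libraries of the same number are pairs in any comparison, and the main fit paired none. The low PBS counts of Sp110 and Sp140 limit the precision of their folds.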
